A study of Homo sapiens with 24 samples.

Results

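The IκB family of L1236 cells was followed after knockdown (KD) of either pair of NF-κB subunits, and its members were the transcripts of NFKBIA, NFKBIB, NFKBIE, NFKBID, NFKBIZ and BCL3. Each was taken from the transcript cluster, the set of probes that stands for a transcript locus, whose only annotated symbol was that gene, which gave 6 clusters for 6 genes, out of 19460 clusters with a single symbol for 18417 genes. L1236 is an established line of Hodgkin lymphoma cells that derive from B cells, and total RNA was measured on 24 Affymetrix Human Gene 1.0 ST arrays. In experiment 1, p50/RelA KD cells received NFKB1 siRNA at 1 µM for 3 days with RELA siRNA at 500 nM for 2 days. In experiment 2, p52/RelB KD cells received RELB siRNA at 1 µM for 3 days with NFKB2 siRNA at 500 nM for 2 days. Each experiment had its own non-targeting siRNA controls, here control 1 and control 2, and all 4 arms came from the same line, took up Accell siRNA passively in medium with 1% serum and were collected 1 day after return to standard medium. Every arm held 6 arrays, from 2 siRNA sequences in each of 3 replicates, and the results describe a single line. Except where stated, p-values measure the spread between these arrays after replicate means are removed. The 2 sequences of a replicate count there as separate arrays.

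IκB proteins bind NF-κB dimers through ankyrin repeats. The classical members IκBα (NFKBIA), IκBβ (NFKBIB) and IκBε (NFKBIE) hold dimers in the cytoplasm until IκB kinase phosphorylates them and they are ubiquitinated and degraded. The atypical members IκBNS (NFKBID), IκBζ (NFKBIZ) and BCL3 act mainly in the nucleus, where they join p50 or p52 dimers on DNA and can repress or activate transcription. Several IκB genes are themselves NF-κB targets, the textbook case being NFKBIA, whose resynthesis ends a response. The precursors of p50 and p52, p105 and p100, also carry ankyrin repeats and can act as IκBs, and their mRNAs were direct siRNA targets here.

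The siRNAs define the 2 perturbations, and the study's list gives 2 sequences for each target, shown as the 19 bases listed. The sources used here do not say which of each pair was sequence 1 on the arrays.
NFKB1, first listed: ccaaaguauaaagauauua
NFKB1, second listed: ggcucauguuuacagcuuu
RELA, first listed: cuuccaaguuccuauagaa
RELA, second listed: ggauugaggagaaacguaa
NFKB2, first listed: ucauugagcagauagucua
NFKB2, second listed: cugucaagaucuguaacua
RELB, first listed: guaggauucggaaaagauu
RELB, second listed: uggagaucaucgacgagua

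The promoters are shown because the perturbed proteins bind DNA at κB sites. RefSeq promoter windows of build GRCh38.p14, reaching from 250 bases before to 50 bases after a start site, were found for 5 of the 6 members, in 9 windows, with no window listed for NFKBIE. The classical NF-κB consensus of 10 bases was searched on both strands, and it occurred in 7 of the 9 windows and in at least 1 window of each of the 5 genes, against 11.3% of all 35116 windows. A match describes these letters and is not evidence that the site is bound. The 250 bases before the NFKBIA start, chr14:35404750-35404999 on the minus strand, held 1 match, in capitals, beginning 81 bases before the start.
NFKBIA: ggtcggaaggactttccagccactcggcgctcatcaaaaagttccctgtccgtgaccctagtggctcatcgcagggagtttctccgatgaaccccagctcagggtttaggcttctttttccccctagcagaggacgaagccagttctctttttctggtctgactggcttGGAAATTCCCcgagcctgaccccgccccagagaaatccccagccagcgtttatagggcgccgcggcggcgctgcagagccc

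For the other members, the match is shown in capitals with 10 bases on either side. NFKBIB had a pair of overlapping matches at the same place, one on each strand, of which one is shown, and another after the start. NFKBID had matches in 2 of its 3 windows and NFKBIZ in both of its windows. The BCL3 match begins at base 3 after the start.
NFKBIB, chr19:38899931-38899960, plus strand: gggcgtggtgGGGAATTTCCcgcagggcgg
NFKBID, chr19:35900613-35900642, minus strand: agcgcgacccGGGGACTCCCaggcctgtgg
NFKBID, chr19:35899922-35899951, minus strand: gggctgagcaGGAATTCCCCttgcgcgggg
NFKBIZ, chr3:101827757-101827786, plus strand: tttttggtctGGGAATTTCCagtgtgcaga
NFKBIZ, chr3:101849265-101849294, plus strand: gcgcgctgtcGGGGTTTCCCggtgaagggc
BCL3, chr19:44748700-44748729, plus strand: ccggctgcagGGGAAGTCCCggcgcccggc

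The target transcripts were lowered unevenly on the arrays. The NFKB1 level in p50/RelA KD was 26.5% of control and the RELA level 38.1% of control. After p52/RelB KD the NFKB2 level was 39.4% of control, while the RELB level was 82.0% of control. These are transcript levels. The paper shows depletion of the subunit proteins by Western blot, which arrays do not measure. The array of p52/RelB KD with sequence 2 in replicate 3 stood apart, with a mean correlation of 0.986 to the other arrays of its arm against 0.993 to 0.994 for the rest. Of 10 B lineage and Hodgkin markers, all 10 reached the low-value limit of 6 (log2) in both experiments. Of 7 T and NK cell markers 2 reached it in experiment 1 and 5 in experiment 2, of 6 myeloid markers 1 and 3, and none of these was called in either KD. The experiments differed in their array medians, so levels are compared only within an experiment. All 6 members passed the low-value filter in both experiments.

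In p50/RelA KD, NFKBIA and NFKBID fell, and the other 4 members lay below control on average without passing the test. In p52/RelB KD, BCL3 and NFKBID fell, while NFKBIA, NFKBIB, NFKBIE and NFKBIZ lay slightly above control on average and none passed the test. NFKBID was thus called in both knockdowns. A member was called, in limma with the replicate as a block, at a Benjamini-Hochberg adjusted p below 0.05 over all clusters tested and a difference of at least 10%. The 2 members called lower in p50/RelA KD stand beside 0.876% of the 15989 clusters tested, and 1.14% were called in either direction. The 2 members called lower in p52/RelB KD stand beside 6% of 17562 clusters, with 4.04% called higher and 10% in either direction. The median effect over the 6 members was -0.22 in p50/RelA KD, where the median over all clusters was 0.00050, and 0.04 in p52/RelB KD, where it was 0.017 (log2). In bulk RNA, less transcript per cell and fewer cells that express it cannot be told apart.

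**Figure D1:**
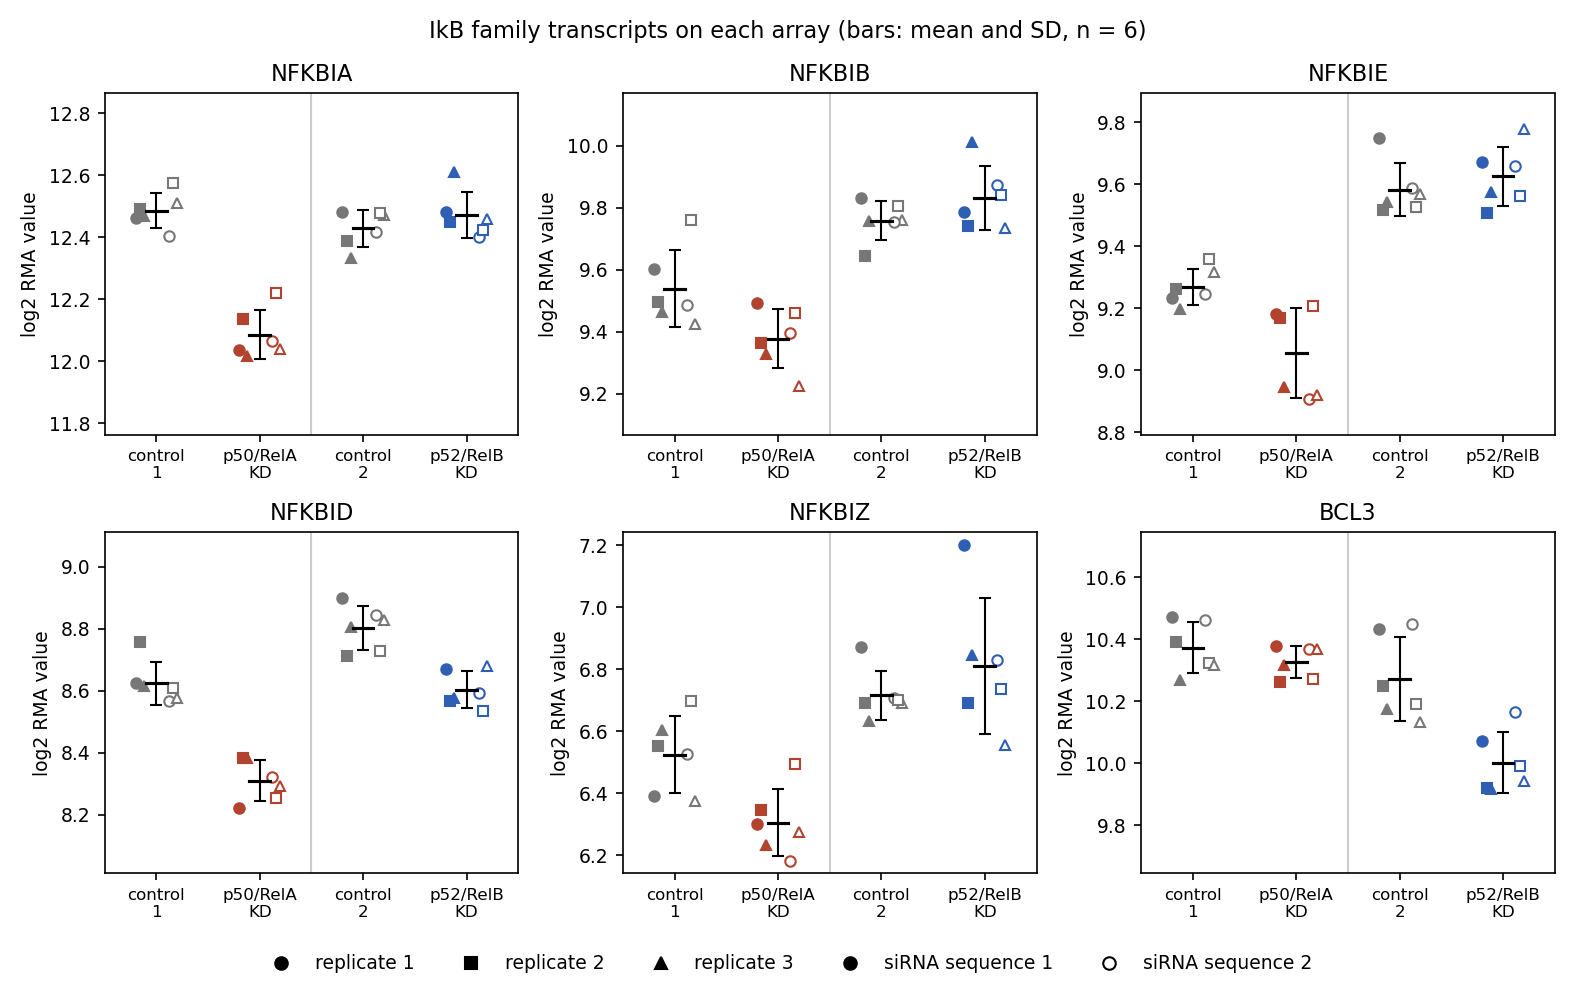
Normalized level of each member on every array (log2 RMA value), by arm; colours mark the arms, shapes the replicates, filled and open points the siRNA sequences, and bars the mean and SD of 6 arrays. All NFKBIA values of p50/RelA KD, 12.02 to 12.22, lie below those of control 1, 12.40 to 12.57, and NFKBID lies below its controls in both experiments; panels share a span but not an origin, and levels are comparable only within an experiment.

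NFKBIA, which encodes the main cytoplasmic inhibitor of p50/RelA, had the largest difference of the 6 in p50/RelA KD. Its level ran from 12.40 through a median of 12.48 to 12.57 in control 1. With p50/RelA KD it ran from 12.02 through a median of 12.05 to 12.22. The groups did not overlap, and every KD array lay below every control array. The difference was -0.40 ± 0.035 (log2, SE, n = 6 arrays an arm), which is 75.8% of control, with a limma adjusted p of 8.2e-05. By replicate it was -0.38, -0.35 and -0.46, so no replicate stood against the others.

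The NFKBIA level of p52/RelB KD did not separate from its control. Control 2 ran from 12.33 through a median of 12.45 to 12.48, and the KD from 12.40 through a median of 12.45 to 12.61. The 2 ranges overlapped. The difference was 0.04 ± 0.045 (limma adjusted p = 0.613), with a 95% interval from -0.06 to 0.14, which does not hold a fall of the size seen in p50/RelA KD. The replicates gave -0.0092, 0.0038 and 0.13, so the average rested on replicate 3. Without the KD array with sequence 1 in that replicate the difference was 0.012, and without the array that stood apart, with sequence 2, it was 0.05.

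NFKBIB, which encodes the IκB that binds c-Rel and RelA dimers, was lower in each replicate of p50/RelA KD but was not called. Its level ran from 9.43 through a median of 9.49 to 9.76 in control 1 and from 9.23 through a median of 9.38 to 9.49 in the KD. The difference was -0.16 ± 0.050 (limma adjusted p = 0.179), and the 95% interval reached from -0.27 to -0.05. The groups overlapped, although all 6 KD arrays lay below the mean control of their own replicate. In experiment 2, control 2 ran from 9.65 to 9.83 with a median of 9.76 and the KD from 9.74 to 10.01 with a median of 9.81. The difference was 0.07 ± 0.051 (limma adjusted p = 0.442), and its interval from -0.04 to 0.18 included 0.

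NFKBIE, which encodes IκBε, was also lower in each replicate of p50/RelA KD and missed the threshold. Control 1 ran from 9.20 through a median of 9.25 to 9.36, and the KD from 8.91 through a median of 9.06 to 9.21. A single KD array, with sequence 2 in replicate 2, lay above the lowest control. The difference was -0.21 ± 0.051 (limma adjusted p = 0.0716), with a 95% interval from -0.32 to -0.10. Without the KD array with sequence 1 in replicate 1 it was called (limma adjusted p = 0.0335). With p52/RelB KD the level ran from 9.51 through a median of 9.62 to 9.78, against 9.52 through 9.55 to 9.75 in control 2. That difference was 0.04 ± 0.045 (limma adjusted p = 0.611; 95% interval from -0.06 to 0.14), and the ranges nearly coincided.

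NFKBID, the nuclear IκBNS, was lower in both knockdowns. In control 1 it ran from 8.57 through a median of 8.61 to 8.76. With p50/RelA KD it ran from 8.22 through a median of 8.31 to 8.38. The groups did not overlap. The difference of -0.31 ± 0.042, or 80.4% of control, passed the test (limma adjusted p = 0.00249), and the replicates gave -0.32, -0.36 and -0.26. Without replicate 1 the difference was -0.31 and the call was lost (limma adjusted p = 0.100).

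In experiment 2, NFKBID ran from 8.71 through a median of 8.82 to 8.90 in control 2. With p52/RelB KD it ran from 8.53 through a median of 8.58 to 8.68. These groups did not overlap either, although the gap between them was narrow. The difference was -0.20 ± 0.034, or 87.1% of control (limma adjusted p = 0.00300), and the replicates gave -0.24, -0.17 and -0.19. The call was lost without replicate 1 (-0.18, limma adjusted p = 0.0916) and without replicate 2 (-0.21, limma adjusted p = 0.0702), and when the 2 sequences of a replicate were averaged first (limma adjusted p = 0.0777). All KD arrays lay below all control arrays for 2 members in p50/RelA KD, against 0.776% of all clusters tested, and for NFKBID alone in p52/RelB KD, against 3.26%.

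NFKBIZ, which encodes the nuclear coactivator IκBζ, lay near the low-value limit of 6. It ran from 6.37 through a median of 6.54 to 6.70 in control 1 and from 6.18 through a median of 6.29 to 6.49 in p50/RelA KD. The groups overlapped, with every KD array below the mean control of its replicate. The difference was -0.22 ± 0.050 (limma adjusted p = 0.0551; 95% interval from -0.33 to -0.11), and the replicates were close to each other at -0.22, -0.21 and -0.24. It was called when the control array with sequence 2 in replicate 3 was left out (limma adjusted p = 0.0317).

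NFKBIZ was the most scattered member in p52/RelB KD. It ran from 6.56 through a median of 6.78 to 7.20, an SD of 0.218 over 6 arrays, against 6.63 through 6.70 to 6.87 in control 2, an SD of 0.0802. The highest value, 7.20, was the array with sequence 1 in replicate 1. The difference was 0.09 ± 0.072 (limma adjusted p = 0.468; 95% interval from -0.06 to 0.25), and the replicates gave 0.23, 0.018 and 0.040.

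BCL3, the nuclear partner of p50 and p52 homodimers, was lower in p52/RelB KD. It ran from 10.13 through a median of 10.22 to 10.45 in control 2 and from 9.92 through a median of 9.97 to 10.16 in the KD. The ranges overlapped by 1 KD array, with sequence 2 in replicate 1, the replicate that was highest in both arms, and within each replicate both KD arrays lay below the control mean. The difference was -0.27 ± 0.035, or 82.9% of control (limma adjusted p = 0.000409), with replicates of -0.32, -0.27 and -0.22. The call was kept without any one replicate and without any one array (limma adjusted p at most 0.0286), but the methods' t-test on deposited values, which has no replicate term, did not call it.

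For p50/RelA KD, BCL3 ran from 10.27 through a median of 10.36 to 10.47 in control 1 and from 10.26 through a median of 10.34 to 10.38 in the KD. The difference was -0.05 ± 0.036 (limma adjusted p = 0.768), and the 95% interval from -0.12 to 0.03 does not hold a fall of the size seen in p52/RelB KD. Replicates 1 and 2 gave -0.09 each and replicate 3 gave 0.05, so the replicates did not share a direction.

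Because the replicates were paired, the arm labels were also exchanged exactly within each replicate, in 216 arrangements, for which 0.00926 is the smallest two-sided p that can arise. In p50/RelA KD the exact permutation p was 0.00926 for NFKBIA, NFKBID, NFKBIE and NFKBIZ, 0.0185 for NFKBIB and 0.139 for BCL3. These p-values are unadjusted, and 10.4% of all clusters tested had one below 0.05. In p52/RelB KD the exact permutation p was 0.00926 for NFKBID and BCL3 and between 0.213 and 0.435 for the other 4 members, where 25.1% of all clusters had one below 0.05. By their differences in each replicate, NFKBIB, NFKBIE and NFKBIZ lay below control in every replicate of p50/RelA KD without passing the fit across all clusters. The share of all clusters that did so was not counted, so this shared direction does not set these members apart.

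**Figure D2:**
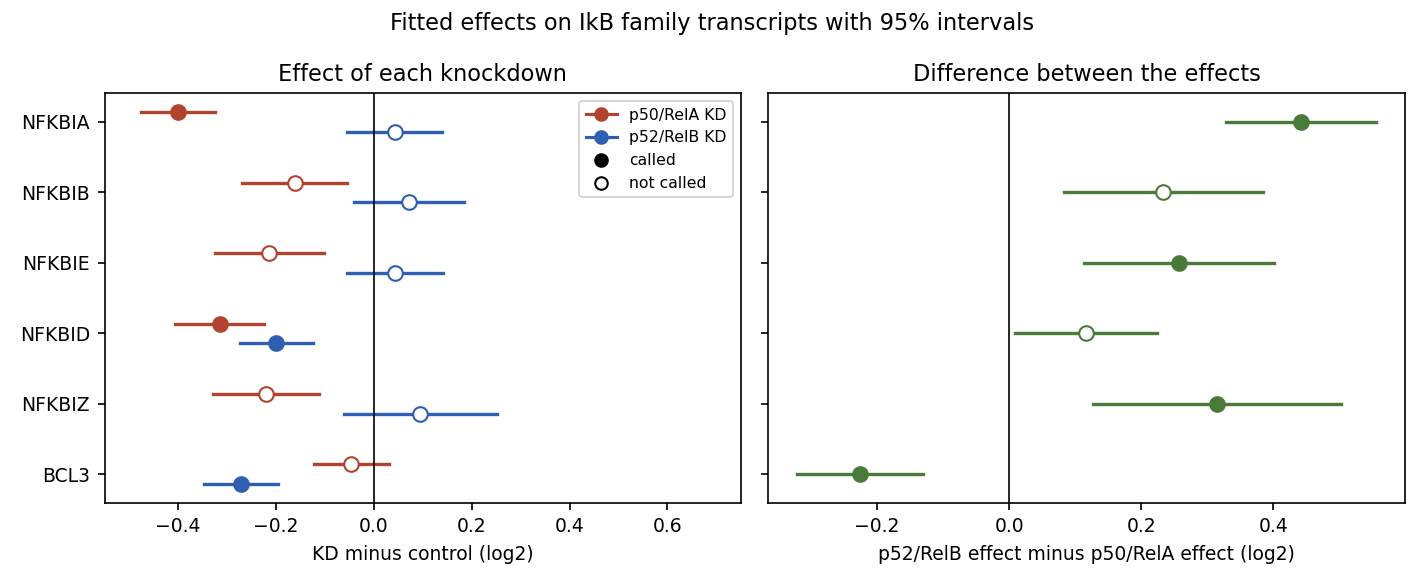
Left, fitted KD minus control difference (log2) of each member in p50/RelA KD and p52/RelB KD with its 95% interval; right, the p52/RelB effect minus the p50/RelA effect; filled points were called. NFKBIA lies at -0.40 in one knockdown and 0.04 in the other, BCL3 at -0.05 and -0.27, and NFKBID is below 0 in both.

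Whether the effects of the 2 knockdowns on a member differed was tested directly, as the p52/RelB effect minus the p50/RelA effect over all 24 arrays. Each knockdown was its own experiment, so a part of the experiment in such a difference cannot be told apart. Of the 6 members 4 differed at an adjusted p below 0.05, against 4.61% of 15962 clusters. NFKBIA differed by 0.44 ± 0.054 (limma adjusted p = 3.4e-05), and it kept this call without any one replicate or array. BCL3 differed the other way, by -0.23 ± 0.046 (limma adjusted p = 0.00560). That call held without any one array but was lost without replicate 1 (limma adjusted p = 0.101) and without replicate 2 (limma adjusted p = 0.0594). In fits of this difference, a replicate was left out of both experiments at once, under the same number.

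NFKBIE, at 0.26 ± 0.069 (limma adjusted p = 0.0345), and NFKBIZ, at 0.31 ± 0.090 (limma adjusted p = 0.0487), differed near the threshold. Leaving out single arrays kept the NFKBIE call in 12 of 24 fits and the NFKBIZ call in 5 of 24, and no fit with a replicate left out kept either. Without the replicate block NFKBIA alone was called, as it was with the scan batch as a block. NFKBIB, at 0.23 ± 0.072 (limma adjusted p = 0.0720), was not called, and without the p52/RelB KD array that stood apart it was (limma adjusted p = 0.0245). NFKBID differed by 0.12 ± 0.052 (limma adjusted p = 0.249), with a 95% interval from 0.0084 to 0.22, so a smaller fall in p52/RelB KD was not shown past the adjusted threshold.

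**Figure D3:**
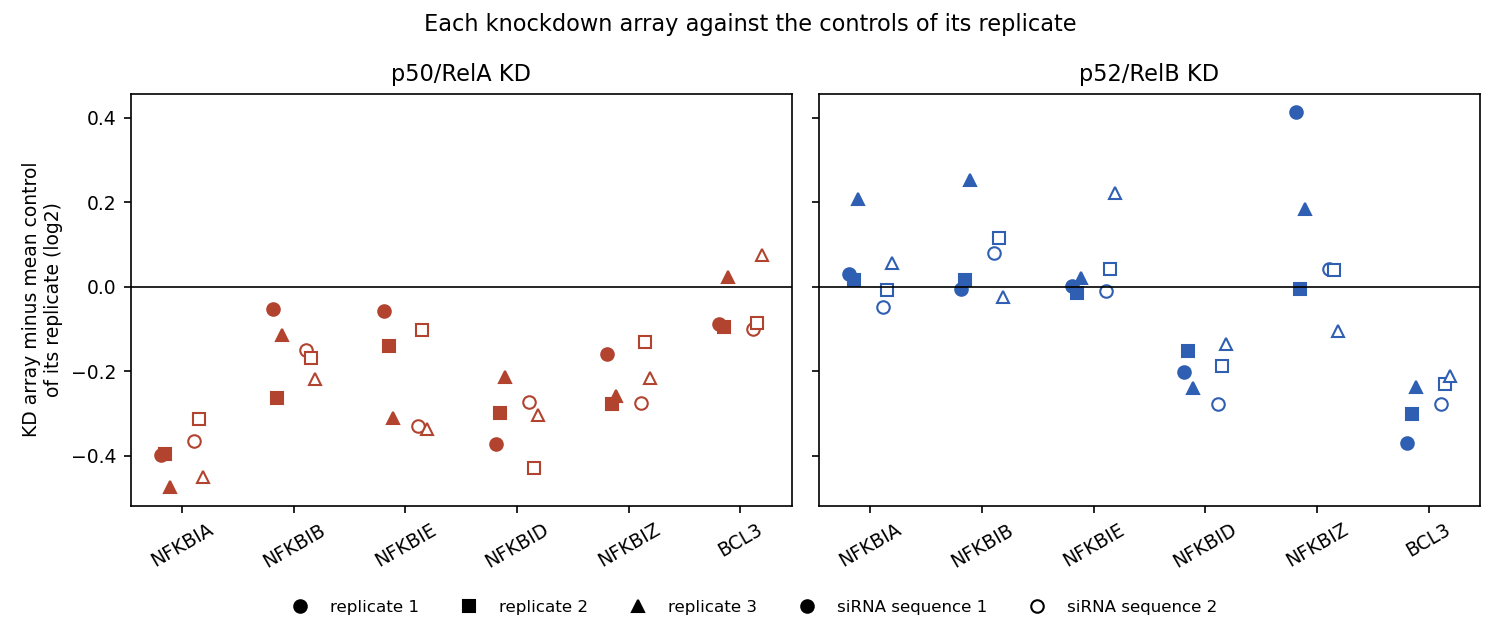
Each KD array minus the mean of the 2 control arrays of its replicate (log2), for p50/RelA KD (left) and p52/RelB KD (right); shapes mark replicates and filled or open points the siRNA sequence. On the left all 6 points of each member but BCL3 lie below 0; on the right this holds for NFKBID and BCL3, and the highest NFKBIZ point is 0.41.

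Each siRNA sequence alone, set against all 6 controls of its experiment, gave the same called members. For p50/RelA KD, NFKBIA was at -0.42 with sequence 1 and -0.38 with sequence 2, and NFKBID at -0.30 and -0.33. Both genes were called with either sequence (limma adjusted p of 0.0034 to 0.041), beside 0.344% and 0.144% of clusters called lower with sequence 1 and sequence 2. For p52/RelB KD, BCL3 was at -0.30 with sequence 1 and -0.24 with sequence 2, and NFKBID at -0.20 with each. Both were called with either sequence (limma adjusted p of 0.0029 to 0.036), beside 2.8% and 4.56% of clusters called lower. The sequences share their controls, so these are not independent counts, and with 3 arrays for each sequence most of the calls were lost once a replicate was left out. Without the replicate block the 2 calls of each sequence became 1 and 0 in p50/RelA KD and 0 and 0 in p52/RelB KD.

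Against the same-numbered non-targeting sequence alone, 3 arrays against 3, the differences were of similar size but fewer were called. NFKBIA stood at -0.41 with sequence 1 (limma adjusted p = 0.0518) and -0.39 with sequence 2 (limma adjusted p = 0.588) of p50/RelA KD. NFKBID there stood at -0.34 (limma adjusted p = 0.0836) and -0.29 (limma adjusted p = 0.942), so neither gene was called with either sequence. BCL3 and NFKBID were called with sequence 1 of p52/RelB KD, at -0.32 and -0.20 (limma adjusted p of 0.0079 and 0.0460), but not with sequence 2, at -0.23 and -0.20 (limma adjusted p of 0.430 and 0.482).

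Sequence 2 was also set against sequence 1 within each arm. No member and no cluster was called by limma, 0% of those tested, in either KD or between the non-targeting sequences of either control. An unadjusted limma p below 0.05 was held by 562 of 15989 clusters in p50/RelA KD and by 1673 of 17562 in p52/RelB KD. Between the non-targeting sequences it was held by 381 of 15989 clusters in control 1 and by 175 of 17562 in control 2. The member that differed most was NFKBIZ in p52/RelB KD, at 0.20 above control with sequence 1 and -0.0076 with sequence 2. The difference between those sequences was -0.21 ± 0.089 (limma adjusted p = 0.504). The 95% interval of the sequence difference was from -0.07 to 0.16 for NFKBIA in p50/RelA KD and from -0.05 to 0.17 for BCL3 in p52/RelB KD, so differences inside those bounds could not be resolved with 3 arrays a sequence.

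The rest of the pathway was counted from lists of its parts. Of the 5 subunit genes, 3 fell and none rose in p50/RelA KD, the siRNA targets NFKB1 and RELA and, at -0.19 ± 0.040, NFKB2, which encodes p100 (limma adjusted p = 0.0422). Of the same 5 genes, 3 fell and 1 rose in p52/RelB KD. Over all clusters tested, 0.876% were called lower in p50/RelA KD, and 6% lower and 4.04% higher in p52/RelB KD. The siRNA targets among these genes were lowered by design, so the counts are not a result about the list. The targets NFKB2 and RELB fell with REL, which encodes c-Rel, at -0.57 ± 0.070 (limma adjusted p = 0.00031), and NFKB1 rose by 0.15 ± 0.040 (limma adjusted p = 0.0359).

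The kinases and ubiquitin ligase parts that act on IκB proteins gave 1 call in the 2 knockdowns. Of 11 clusters for 10 of these genes none was called in p50/RelA KD, where 1.14% of all clusters were, and 1 of 11 in p52/RelB KD, close to the 10% of all clusters there. CHUK was higher in p52/RelB KD; it encodes IKKα and stood at 0.19 ± 0.048 (limma adjusted p = 0.0286). The list medians were 0.02 and -0.0049. Of 6 clusters for 4 IκB-like and IκB-Ras genes none was called in either KD, with differences from -0.07 to 0.02 in p50/RelA KD and from -0.29 to 0.12 in p52/RelB KD. Several of these clusters are of NFKBIL1 and carry identical values, 0.0014 in p50/RelA KD and -0.043 in p52/RelB KD. They are not separate measurements, and their values are also the list medians.

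Of 14 other feedback inhibitors of NF-κB, 1 fell in p50/RelA KD and 3 fell in p52/RelB KD, where 0.876% and 6% of all clusters did. TNFAIP3, the ubiquitin-editing enzyme A20, was lower in both, at -0.45 ± 0.038 (limma adjusted p = 5.6e-05) and -0.35 ± 0.072 (limma adjusted p = 0.0084). TNIP1 and TAX1BP1, which encode ubiquitin-binding partners of A20, fell in p52/RelB KD, at -0.31 ± 0.034 (limma adjusted p = 0.00015) and -0.27 ± 0.066 (limma adjusted p = 0.0229). The effects of the 2 knockdowns differed for TNIP1 (limma adjusted p = 0.0134) but not past the threshold for TAX1BP1 (limma adjusted p = 0.0875). The list medians were -0.03 and -0.09. Of the 10 B lineage and Hodgkin markers, CCL17 (-0.44) and CD40 (-0.19) fell in p50/RelA KD and 8 were not called. In p52/RelB KD, CD40 (-0.29) and TRAF1 (-0.23) fell, PAX5 (0.19) rose and 7 were not called. Over all clusters, 1.14% and 10% were called in either direction.

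**Figure D4:**
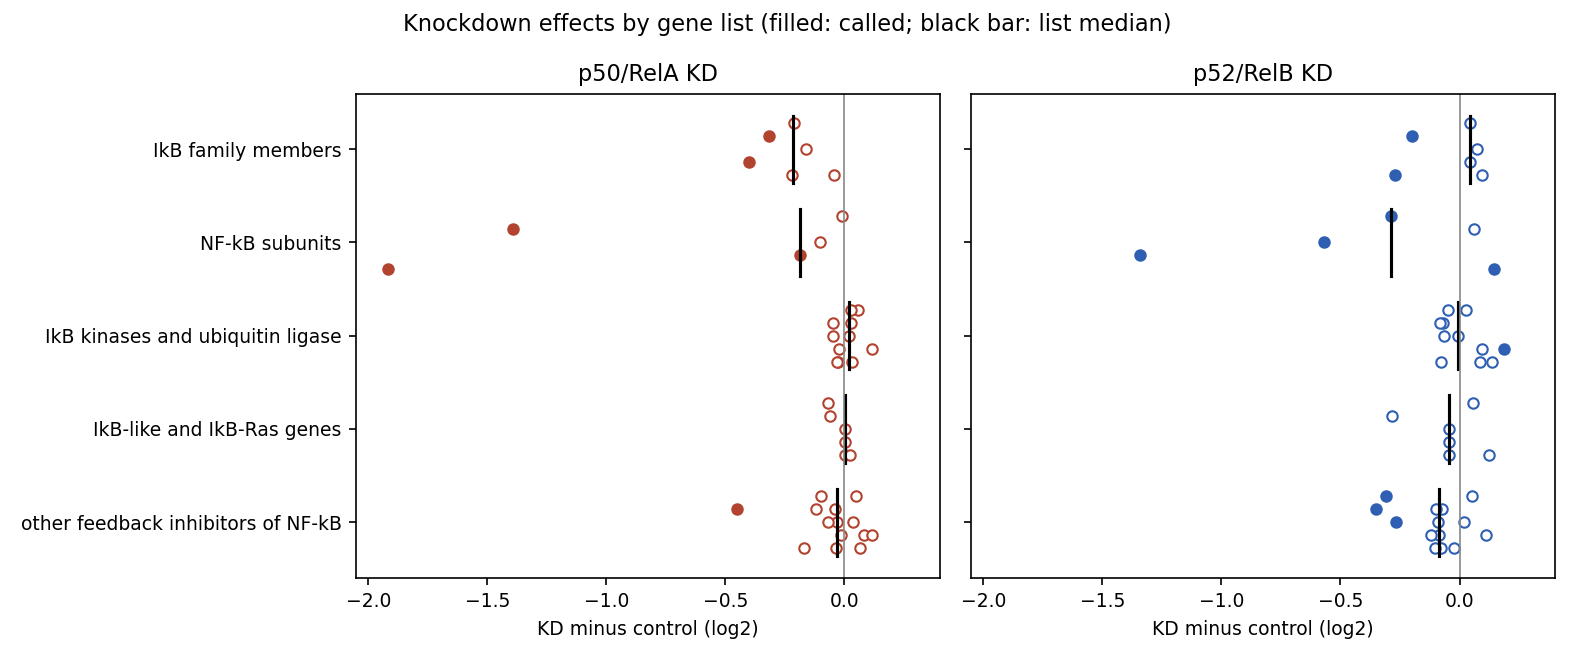
KD minus control difference (log2) of every tested cluster in 5 gene lists, in p50/RelA KD (left) and p52/RelB KD (right); filled points were called and the black bar is the list median. The IκB family median is -0.22 on the left and 0.04 on the right. The kinase and ligase list has its median near 0 in both, with CHUK called at 0.19 on the right. Among the subunits, the points furthest left are the siRNA targets NFKB1 and RELA in the left panel and NFKB2 in the right. In the right panel REL, not a target, comes next at -0.57, further left than the target RELB at -0.29.

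The genes whose pattern was most like that of a called member were found over the 24 arrays, after the mean of each replicate of each experiment was subtracted, among 14646 other clusters. The knockdowns themselves make up much of this pattern, so the correlation is a description. NFKBIA was nearest to ICAM1, an adhesion molecule (r = 0.951), then to the siRNA targets RELA (r = 0.947) and NFKB1 (r = 0.945). ICAM1 stood at -0.29 in p50/RelA KD and -0.04 in p52/RelB KD. NFKBID was nearest to HAPLN3, a hyaluronan link protein (r = 0.925), CACNA1G, a calcium channel subunit (r = 0.923), and THOP1, a peptidase (r = 0.918). HAPLN3 stood at -0.54 and -0.37, lower in both knockdowns as NFKBID was. CACNA1G, at -0.14 and -0.13, and THOP1, at -0.13 and -0.11, were called in neither. BCL3 was nearest to IZUMO4 (r = 0.954), P4HA2, a collagen prolyl hydroxylase subunit (r = 0.950), and SLC7A5, an amino acid transporter (r = 0.949). With p52/RelB KD these 3 stood at -1.01, -0.54 and -0.30, and with p50/RelA KD at -0.28, -0.03 and -0.06, where none was called.

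Scan batches coincided with the replicates in experiment 1, and in experiment 2 one batch held replicate 3 and another replicates 1 and 2. Within the 3 batches of experiment 1, NFKBIA was at -0.38, -0.35 and -0.46 and NFKBID at -0.32, -0.36 and -0.26. Within the 2 batches of experiment 2, BCL3 was at -0.22 with replicate 3 and -0.29 with the others, and NFKBID at -0.19 and -0.20. Of these, BCL3 and NFKBID in the batch of replicates 1 and 2 were called; no other value was called within its batch (limma adjusted p from 0.153 to 0.899). Without the p52/RelB KD array that stood apart, BCL3 was at -0.28 and NFKBID at -0.21, both still called.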

How the data were processed

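The authors deposited log2 values from RMA, which corrects background, quantile-normalizes arrays and summarizes probes into transcript clusters (version not given in the sources used here). The methods mention an adjustment for covariates without naming them. The table held 33297 clusters. GEO's platform annotation gave a single symbol to 19460, updated through the NCBI gene table. Members and gene lists were chosen with earlier results of these data known. Each KD was compared with its own controls by limma 3.58.1 in R 4.3.3, blocking on the replicate, because same-numbered samples deviated together (correlations 0.193 to 0.576). Clusters with any symbol were tested unless below 6 in 50% of arrays or more. All 6 members are named; of other lists, the called genes, at most 4 a list by adjusted p; and the 3 genes most like each called member. RELB is named as an siRNA target. Intervals are 95%. The number of arrays limits precision. Alternatives changed the block, filter, normalization, test, sequences and arrays.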

Additional observations from a re-analysis of the deposited data

Results flagged for a closer look

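Of 24 sets of 6 arrays, 1 for each member and arm, 3 held an array whose gap to the nearest other array passed Dixon's 95% limit as a share of the range, where chance gives about 1 set in 20. NFKBIE in control 2 had its highest value, 9.75, with sequence 1 in replicate 1 (gap 0.692 of the range), and NFKBIZ had its highest control 2 value, 6.87, on the same array (0.690). NFKBID in control 1 had its highest value, 8.76, with sequence 1 in replicate 2 (0.700). Without those arrays NFKBIE was at 0.07 and NFKBIZ at 0.10 in p52/RelB KD, still not called, and NFKBID at -0.29 in p50/RelA KD, still called (limma adjusted p = 0.0073).

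The KD effects differed between the experiments for 4 members in the test of the difference itself: NFKBIA by 0.44, NFKBIZ by 0.31, NFKBIE by 0.26 and BCL3 by -0.23 (p52/RelB effect minus p50/RelA effect, log2). The array medians of the experiments differed, and the target transcripts were lowered to different extents. The part of either in these results was not tested. Each knockdown had its own experiment and scan batches, so a difference between knockdowns cannot be told apart from one between experiments.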

How the results depend on the processing

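Of 585 values of single members under an alternative, 495 kept direction and side of the threshold, 73 kept direction but lost the call, 12 gained one and 5 changed sign. Some alternatives repeat a fit. In experiment 1 the scan batch block was the main fit, and in experiment 2 scan batch 5 was the fit without replicate 3. Dropping the minimum difference left each fitted value as it was. The exact permutation was scored on an unadjusted p below 0.05, by which NFKBIB, NFKBIE and NFKBIZ gained a call in p50/RelA KD. The 5 sign changes were all of effects near 0 that were not called: BCL3 in p50/RelA KD at 0.048 within scan batch 3, NFKBIA in p52/RelB KD at -0.0027 without replicate 3 (0.068 at most without another) and within scan batch 5, and at -0.028 with sequence 2 of both arms, and NFKBIE in p52/RelB KD at -0.019 with sequence 1 of both arms. The number of members called, 2 in each KD, fell to 0 in p50/RelA KD with either sequence of both arms alone and was 5 by the unadjusted exact permutation. In p52/RelB KD it was 1 with averaged sequences, 1 by the methods' t-test on deposited values (2 after replicate means were removed) and 0 with sequence 2 of both arms alone. Leaving out a replicate or array gave 1 to 3 in p50/RelA KD and 1 to 2 in p52/RelB KD.

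The number of members whose effects differed, 4, was 1 without the replicate block, with scan batch as block and with averaged sequences, and 2 with no filter on low values; leaving out a replicate or array gave 1 to 5. Testing only clusters with a single symbol, an alternative chosen after seeing the data, gave 3, as NFKBIZ just missed the threshold (limma adjusted p = 0.0502). With no replicate block the members called with a single sequence were 1 and 0 in p50/RelA KD and 0 and 0 in p52/RelB KD, against 2 each; further quantile normalization gave 1 for sequence 1 of p50/RelA KD and 1 for sequence 2 of p52/RelB KD. Leaving out a replicate gave 0 for both sequences of p50/RelA KD, 0 to 1 for sequence 1 and 0 to 2 for sequence 2 of p52/RelB KD.

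Over all clusters, 182 calls in p50/RelA KD became 68 and 1764 in p52/RelB KD became 962 without the replicate block, 42 and 709 with averaged sequences, and 34 and 790 by the methods' t-test on deposited values. In p50/RelA KD there were 285 calls with trend and robust variances and 299 by that t-test after replicate means were removed, while sequences 1 and 2 of both arms gave 6 and 3, and 1280 and 1 in p52/RelB KD. The 736 differences between the KD effects became 283 without the block and 159 with averaged sequences. Leaving out a replicate gave 16 to 52 calls in p50/RelA KD, 492, 527 and 2250 in p52/RelB KD without replicates 1, 2 and 3, and 193 to 362 differences. NFKBIZ had no value under the stricter filter in either experiment. Small log2 differences cannot be resolved with 3 replicates, and arrays give no depth.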
